A study of Mus musculus with 6 samples.

Results

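The variable (V) segments of the T cell receptor were the 144 rows of biotype TR_V_gene among 50686 genes in the count table. They were taken whatever their level, and split into chains by the prefix of the gene name: 110 alpha, 22 beta, 7 gamma and 5 delta segments. A total of 3 members carry no chain prefix and were placed through RefSeq synonyms: Gm16602 is the gamma segment Trgv1, and B230359F08Rik and C920008G01Rik are alpha segments. Among the alpha segments, 10 have a name ending in dv and a number, which marks segments that can also join to the delta chain.

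A T cell receptor chain is assembled in the thymus by cutting and joining genomic DNA. The RAG recombinase joins 1 of many V segments to a J segment, with a D segment between them in the beta and delta chains, and splicing joins the result to a constant (C) gene. An assembled chain is thus read out with its V segment and its constant gene in the same transcript, whereas an unrearranged locus can give transcripts of constant genes, J segments or single V segments alone. Alpha with beta and gamma with delta form the receptors of the main T cell lineages. Natural killer (NK) cells are innate lymphocytes that need no such receptor, and transcripts of receptor constant genes are known in them.

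The libraries were bulk RNA-seq libraries of NK cells from spleens of C57BL/6J mice. The WT group (3 libraries) came from healthy mice labelled as wild type, and the Eumyc group (3 libraries) from mice given Eumyc lymphoma intravenously, with spleens taken at day 14. Cells were depleted of B cells with the antibody 1D3, enriched on CD49b beads and sorted for NK1.1 without the beta chain of the T cell receptor at the surface (NK1.1+TCRb-). For the Eumyc samples the unbound fraction of the CD49b beads was sorted as well, so the sort and the lymphoma cannot be told apart in any comparison. The gate removes cells with a beta chain on the surface but has no marker for the gamma and delta chains. Whether a group's samples were separate animals is not in the labels, so the p-values cover only sample-to-sample spread, which may be technical. In bulk RNA, fewer cells of a type and less RNA per cell cannot be told apart.

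The WT libraries held 16407611 to 36534191 counts and the Eumyc libraries 44456157 to 66615602, so that every Eumyc library was deeper. V segments took 64.7 to 66.2 CPM in WT (CPM being counts scaled by the library total over all genes), against 68.0 to 76.8 CPM in Eumyc. A count of 3 stood for 0.0821 to 0.183 CPM in a WT library and for 0.0450 to 0.0675 CPM in an Eumyc library. Over all libraries the 5 delta segments held 67.2% of the 18072 counts on V segments, the 7 gamma segments 18.8%, the 22 beta segments 8.26% and the 110 alpha segments 5.74%.

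Most V segments carried few counts or none. Of the 144, 62 were at 0 in all 6 libraries, and 61 of these were alpha segments. A count in some library was found for 49 of 110 alpha, 21 of 22 beta, 7 of 7 gamma and 5 of 5 delta segments. Only 22 segments passed edgeR's filter on low counts and were tested: 4 alpha, 11 beta, 4 gamma and 3 delta. The 122 others had means of at most 0.213 CPM over the 6 libraries.

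The alpha locus of the mouse holds near-identical copies of its segments, named with d or n, and reads that match several copies may not be counted for any of them. How reads with several matches were treated is not given in the sources used here. Sequence uniqueness was therefore computed for each member as the share of its 50-base windows found in no other V segment of the GENCODE M21 transcripts. Among the alpha segments, 42 had under 10% unique windows, and 1 of these 42 had a count. Of the 12 alpha segments with over 90% unique windows, 11 had a count. The 63 alpha segments named with d or n held 49 counts in all, on 14 of them, while 35 of the 47 other alpha segments had a count. All 22 beta segments had over 90% unique windows. The zeros of the alpha chain are therefore read as uncertain. Sums over the alpha chain may be too low, and the shares and ratios that use them carry the same limit.

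**Figure D1:**
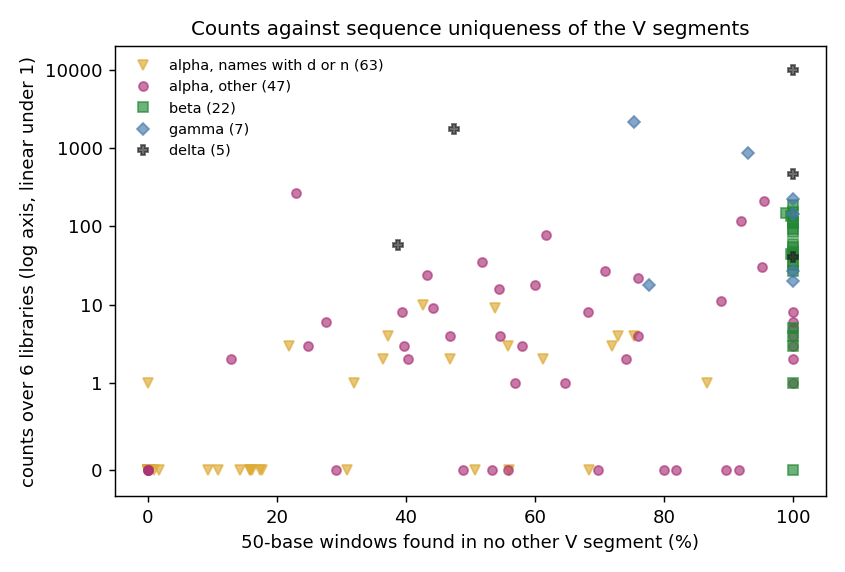
Counts summed over 6 libraries (vertical axis, log scale, linear under 1) against the share of 50-base windows found in no other V segment (horizontal axis, percent) for the 144 segments, 1 point each, by chain. The 63 alpha segments named with d or n reach at most 86.7% uniqueness, with a median of 0%, and hold at most 10 counts each, and Trdv4, at 100%, stands highest.

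Both gamma segments that changed and 4 delta segments are shown by the last 90 coding bases of each, which end where V joins to D or J. The coordinates are on GRCm38 and the sequences from the GENCODE M21 transcripts, printed 5′ to 3′ along the gene. The capitals mark the last in-frame cysteine codon, the conserved residue at which the third complementarity-determining region (CDR3), the part that touches antigen, begins. Gm16602 (chr13:19340365-19340454, plus strand) and Trgv2 (chr13:19336573-19336662, minus strand) are the gamma pair whose levels changed. Trdv2-1 (chr14:53946571-53946660, plus strand) and Trdv2-2 (chr14:53961513-53961602, plus strand) show how alike 2 segments with very different counts can be. Trdv4 (chr14:54075426-54075515, plus strand) held the most counts, and Trdv5 (chr14:54148662-54148751, minus strand) fell.
Gm16602: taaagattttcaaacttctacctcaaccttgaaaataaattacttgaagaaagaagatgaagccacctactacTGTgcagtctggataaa
Trgv2: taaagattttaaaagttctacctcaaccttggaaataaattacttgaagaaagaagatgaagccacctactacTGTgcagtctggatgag
Trdv2-1: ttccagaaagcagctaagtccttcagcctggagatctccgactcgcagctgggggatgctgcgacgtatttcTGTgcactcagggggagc
Trdv2-2: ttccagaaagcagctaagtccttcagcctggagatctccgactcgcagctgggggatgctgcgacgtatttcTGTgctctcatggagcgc
Trdv4: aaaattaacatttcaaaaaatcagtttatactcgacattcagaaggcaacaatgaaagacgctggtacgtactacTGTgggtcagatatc
Trdv5: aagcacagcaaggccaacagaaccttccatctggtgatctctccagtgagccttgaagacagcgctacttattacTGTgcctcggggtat

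Over their whole coding sequences Gm16602 and Trgv2 were identical at 332 of 350 aligned positions (94.9%), and at 85 of the 90 bases shown. Trdv2-1 and Trdv2-2 were identical at 321 of 349 positions (92.0%), and at 86 of the 90 bases shown. Gm16602 had 75.4% unique windows and Trgv2 93.0%, against 38.8% for Trdv2-1, 47.4% for Trdv2-2 and 100% for Trdv4 and Trdv5. Counts of Gm16602 and Trgv2, and of Trdv2-1 and Trdv2-2, are thus uncertain as to the split within each pair. Trdv4 and Trdv5 shared no 50-base window with another V segment.

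Of the tested V segments, 2 of 4 gamma segments rose, and 2 of 3 delta, 1 of 11 beta and 1 of 4 alpha segments fell. With edgeR's quasi-likelihood test, 6 of the 22 tested segments (27.3%) had a Benjamini-Hochberg adjusted p under 0.05, where 48.8% of all 15458 tested genes did. Tested segments had means down to 0.189 CPM, where few counts make a call harder to reach, so the shares are not like for like. The gamma segments Gm16602 and Trgv2 were higher in Eumyc (2 of 22, against 25.7% of all genes). The segments Trdv5, Trdv2-2, Trbv17 and Trav13-4-dv7 were lower (4 of 22, against 23.1% of all genes). The groups did not overlap for 8 of the 22 (36.4%), against 60.2% of all tested genes. The median log2 fold change of the 22, Eumyc minus WT, was -0.13, and that of all tested genes was -0.0050.

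The gamma segments gave the clearest rise. Gm16602, the V segment of the cluster that ends in the constant gene Tcrg-C4, stood at 3.21, 3.06 and 3.47 CPM (TMM-scaled, as are all levels of single genes) in the WT libraries and at 8.03, 9.90 and 13.05 CPM in the Eumyc libraries. Every Eumyc library was above every WT library, and the WT libraries lay close together. The mean went from 3.25 ± 0.211 to 10.3 ± 2.54 CPM (SD, n = 3 each), a log2 fold change of 1.68 ± 0.20 (SE, edgeR adjusted p = 0.000446). Leaving out any library kept the log2 fold change between 1.48 and 1.84.

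Trgv2 is the gamma segment most like Gm16602 in sequence, as shown above, and lies next to it on the opposite strand. Its level was 2.06, 1.16 and 1.86 CPM in WT, against 2.72, 4.22 and 5.06 CPM in Eumyc. The groups did not overlap, with WT 2 lowest and Eumyc 3 highest. The log2 fold change was 1.27 ± 0.31 (SE, edgeR adjusted p = 0.00954). Reads from the stretches the pair shares could be counted for either.

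The other gamma segments were rarer and less even. For rare segments plain counts are given, which are not scaled for the greater depth of the Eumyc libraries. Tcrg-V4 had 21, 0 and 18 counts in WT, against 34, 80 and 67 in Eumyc. In CPM this was 0.758, 0 and 1.08 in WT, against 0.785, 1.24 and 1.01 in Eumyc, so that WT 2 held none while WT 3 reached the level of Eumyc. Its log2 fold change was 0.88 ± 0.84 (SE, edgeR adjusted p = 0.415) and ran from 0.18 to 1.52 when 1 library was left out. With limma voom it was 2.67 (adjusted p = 0.0907). Tcrg-V5, the gamma segment of gamma-delta T cells in the skin, had 3, 21 and 9 counts in WT, against 19, 24 and 66 in Eumyc (log2 fold change 0.59 ± 0.63, edgeR adjusted p = 0.461). Neither passed the test.

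Tcrg-V7, a segment known from gamma-delta T cells of the gut epithelium, had 0 counts in each WT library and 12, 7 and 8 in Eumyc. Against 3 counts over the whole WT group this is at least 4.199-fold higher, for counting error only. Tcrg-V6 (9, 5 and 6 counts in Eumyc) and Tcrg-V3 (5, 3 and 10), named after their values were seen, were also at 0 in WT, giving at least 3.11-fold and 2.80-fold higher levels by the same limit. None of these 3 passed the filter. With no filter on low counts Tcrg-V7 was called higher (edgeR adjusted p = 0.0252), while Tcrg-V6 (0.0538) and Tcrg-V3 (0.0729) were not. Tcrg-V7, Tcrg-V4, Tcrg-V6 and Tcrg-V5 lie within the antisense gene Gm43385, which had 10, 1 and 4 counts in WT, against 13, 18 and 57 in Eumyc. Without a stated strand setting, reads of the segments and of this gene cannot be told apart.

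The number of gamma segments seen also differed once depth was made equal. At 116 counts per library, the smallest gamma total, 3.97, 3 and 4 segments were expected in WT and 6.52, 5.26 and 5.51 in Eumyc, and the groups did not overlap. The share of Gm16602 among the gamma counts was 52.4%, 63.8% and 50% in WT and 63.9%, 62.0% and 63.8% in Eumyc, with overlap between the groups. The exact (Clopper-Pearson) 95% interval was 40.6% to 59.4% in WT 3, which had 116 gamma counts, and 61.1% to 66.3% in Eumyc 3, which had 1360, covering counting error only. In WT 2 it was 56.3% to 70.9%, a range that holds the share of every Eumyc library.

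The largest log2 fold changes of tested V, J and C genes of the gamma locus were at the end that holds Gm16602, Trgj4 and Tcrg-C4. Trgj4, the J segment between the V and the constant gene, went from 1.06 ± 0.799 to 3.83 ± 0.723 CPM (log2 fold change 1.97, edgeR adjusted p = 0.00660). Tcrg-C4 went from 15.7 ± 1.81 to 66.0 ± 12.05 CPM (SD, n = 3 each), a log2 fold change of 2.08 ± 0.15 (SE, edgeR adjusted p = 0.000114). Tcrg-C2 rose by less (0.52 ± 0.16, adjusted p = 0.0257), and lost its call without WT 1, WT 3, Eumyc 2 or Eumyc 3. Tcrg-C1 stood at 7.01 ± 1.62 and 7.84 ± 1.41 CPM, a difference that did not pass the test (adjusted p = 0.538). Whether the changes of these genes differ from each other was not tested.

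**Figure D2:**
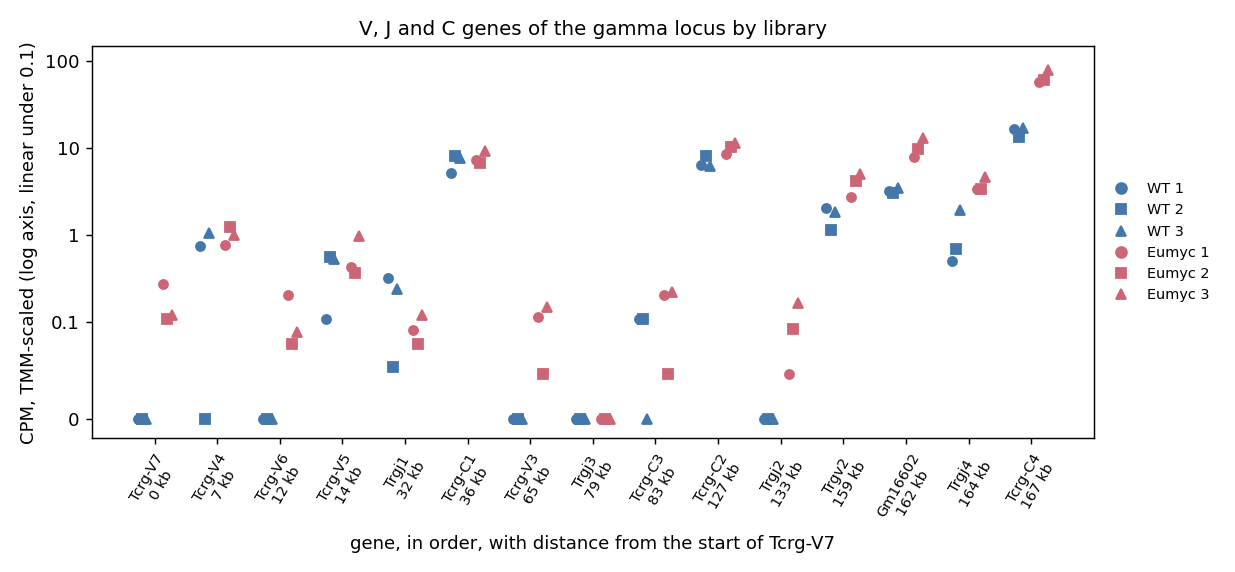
Level of each V, J and C gene of the gamma locus in the 6 libraries (CPM, TMM-scaled, log axis that is linear under 0.1), in locus order with the distance from the start of Tcrg-V7 in kb. The 3 Eumyc libraries lie above the 3 WT libraries at Tcrg-C2, Trgv2, Gm16602, Trgj4 and Tcrg-C4 and at 4 genes that are at 0 in WT (Tcrg-V7, Tcrg-V6, Tcrg-V3 and Trgj2), while they mix at Tcrg-V4, Tcrg-V5 and Tcrg-C1.

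Counts of Gm16602 per 100 counts of Tcrg-C4 were 19.5, 22.5 and 20.5 in WT and 14.0, 16.2 and 16.4 in Eumyc. The V segment and its constant gene thus rose together, with the ratio lower in every Eumyc library than in every WT library. For Trgv2 per 100 counts of Tcrg-C2 the values were 31.8, 14.2 and 29.5 in WT and 31.6, 41.2 and 44.5 in Eumyc, and the groups overlapped.

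The delta segments held the highest level of any chain, and most of it in Trdv4. Per kilobase of exon, Trdv4 averaged 85.2 CPM over the 6 libraries, against 18.6 for Trdv2-2, 18.1 for Gm16602, 5.80 for Trgv2 and 4.73 for Trdv5. Trdv4 stood at 34.9, 35.8 and 37.4 CPM in WT, against 40.1, 39.6 and 39.3 CPM in Eumyc. The groups did not overlap, but the log2 fold change was 0.14 ± 0.07 (SE) and did not pass the test (edgeR adjusted p = 0.113). Trdv4 lies over the antisense gene Gm42877, which had 90, 155 and 50 counts in WT, against 67, 165 and 89 in Eumyc and fell (log2 fold change -0.95, edgeR adjusted p = 0.0247), and the strand setting that would part them was not given in the sources used here.

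Trdv5 and Trdv2-2 fell. Trdv5, the delta segment that lies beyond the constant gene in reverse orientation, was at 3.14, 2.81 and 2.52 CPM in WT, against 1.57, 1.35 and 1.05 CPM in Eumyc, with no overlap. Its log2 fold change was -1.10 ± 0.23 (SE, edgeR adjusted p = 0.00534). An exon of Trdc, on the opposite strand, overlaps Trdv5 in GENCODE M21, and Trdc fell too, so the counts of Trdv5 are uncertain without the strand setting.

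Trdv2-2 stood at 9.38, 9.36 and 7.67 CPM in WT, against 6.42, 6.73 and 4.82 CPM in Eumyc. The groups did not overlap, and the third library was lowest in both. The log2 fold change was -0.56 ± 0.17 (SE, edgeR adjusted p = 0.0231). This call was lost without WT 1 (adjusted p = 0.0811), WT 2 (0.0774) or Eumyc 3 (0.0801).

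Its near copy Trdv2-1 had 4, 7 and 2 counts in WT, against 10, 19 and 16 in Eumyc, and Trdv1 had 1, 3 and 2 in WT and 14, 9 and 12 in Eumyc. Scaled for depth, Trdv2-1 stood at 0.151 ± 0.0353 and 0.255 ± 0.0339 CPM and Trdv1 at 0.0790 ± 0.0419 and 0.214 ± 0.0965 CPM (SD, n = 3 each). In both the Eumyc libraries were above the WT libraries, and neither passed the filter. Trdv2-1 and Trdv2-2 lie over the antisense gene Gm43647, which had 42, 23 and 9 counts in WT, against 20, 59 and 43 in Eumyc. Without the strand setting their reads and those of this gene cannot be told apart. The share of Trdv4 among delta counts was 73.3%, 74.2% and 78.2% in WT and 82.4%, 82.3% and 86.2% in Eumyc. The groups did not overlap, and the exact 95% intervals of WT 3 (75.2% to 81.0%) and Eumyc 2 (80.9% to 83.6%) overlapped.

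**Figure D3:**
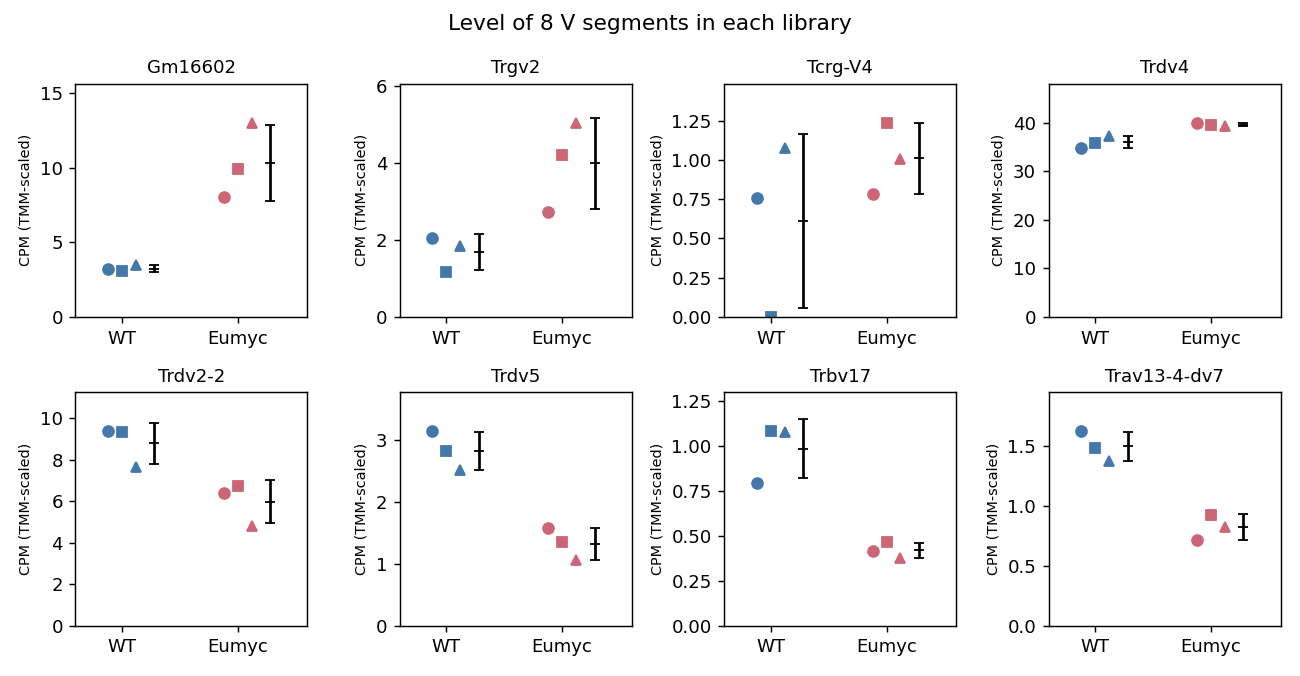
Level of 8 V segments in each library (CPM, TMM-scaled, each panel from 0), with circles, squares and triangles for replicates 1, 2 and 3 and the mean ± SD of the group (n = 3) beside them. Gm16602 and Trgv2 are higher in the 3 Eumyc libraries, Trdv2-2, Trdv5, Trbv17 and Trav13-4-dv7 lower, and Tcrg-V4 overlaps.

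Trdc, the constant gene of the delta chain, fell. It went from 105 ± 2.84 to 61.8 ± 5.68 CPM (SD, n = 3 each), a log2 fold change of -0.76 ± 0.08 (SE, edgeR adjusted p = 0.000249). Counts of Trdv4 per 100 counts of Trdc were 34.0, 34.2 and 34.6 in WT and 61.7, 60.6 and 71.1 in Eumyc. The WT libraries were thus nearly equal and every Eumyc library far above them.

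Trdv2-2 and Trdv5 did not show this gap. Per 100 counts of Trdc, Trdv2-2 gave 9.15, 8.95 and 7.09 in WT and 9.88, 10.3 and 8.71 in Eumyc. Trdv5 gave 3.06, 2.69 and 2.33 in WT and 2.42, 2.06 and 1.91 in Eumyc. The groups overlapped for both.

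The beta segments were spread thinly over many members. Trbv17, the only tested beta segment that passed the test, is on the plus strand at chr6:41163467-41163556 (last 90 coding bases), and is shown with Trav13-4-dv7 (chr14:53757832-53757921, plus strand), the only tested alpha segment that did, with the cysteine codon in capitals as before.
Trbv17: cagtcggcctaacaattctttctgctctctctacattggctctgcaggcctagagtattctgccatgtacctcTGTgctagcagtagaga
Trav13-4-dv7: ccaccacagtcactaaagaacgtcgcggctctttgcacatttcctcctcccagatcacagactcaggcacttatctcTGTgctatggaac

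Trbv17 stood at 0.794, 1.08 and 1.08 CPM in WT, against 0.415, 0.464 and 0.376 CPM in Eumyc, with no overlap. Its counts were 22, 40 and 18 in WT and 18, 30 and 25 in Eumyc. The log2 fold change was -1.22 ± 0.32 (SE, edgeR adjusted p = 0.0140). The call was lost without WT 2 (adjusted p = 0.0502) or Eumyc 3 (0.0599).

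The 10 other tested beta segments did not pass the test. Trbv13-2 was at 0.735 ± 0.145 CPM in WT, against 0.443 ± 0.0463 CPM in Eumyc (SD, n = 3 each) without overlap, with a log2 fold change of -0.70 ± 0.34 (SE, edgeR adjusted p = 0.123). Trbv1 stood at 0.657 ± 0.286 and 0.717 ± 0.213 CPM and Trbv12-2 at 0.609 ± 0.181 and 0.547 ± 0.229 CPM, both with overlap. Over the 11 tested beta segments 8 log2 fold changes were below 0 and 3 above, with a median of -0.13.

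Single libraries decided several beta values. Trbv12-1 had 7, 46 and 3 counts in WT, against 8, 13 and 37 in Eumyc, and its log2 fold change of -0.91 (edgeR adjusted p = 0.339) ran from -1.25 to 0.54 when 1 library was left out. Trbv13-3 had 10, 0 and 0 counts in WT, against 2, 16 and 16 in Eumyc, and Trbv20 had 15, 0 and 0 in WT and 16, 13 and 11 in Eumyc, both named after their values were seen. A beta segment with a count was found 19, 13 and 14 times in the WT libraries and 18, 20 and 18 times in Eumyc. At an equal 86 beta counts the expected numbers were 17.3, 11.9 and 14 in WT and 16.8, 17.6 and 16.5 in Eumyc, with overlap.

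Among the alpha segments Trav13-4-dv7, which can also join to the delta chain, held the most counts. It stood at 1.62, 1.49 and 1.38 CPM in WT, against 0.716, 0.928 and 0.828 CPM in Eumyc, with no overlap between the groups. The log2 fold change was -0.86 ± 0.26 (SE, edgeR adjusted p = 0.0240). It was called under 7 of 13 alternatives in which it was tested. Without WT 1, WT 2, Eumyc 1 or Eumyc 3 the adjusted p was 0.0772, 0.0552, 0.0830 and 0.0727. Only 22.9% of its 50-base windows were unique among V segments, so its counts may belong in part to copies.

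Its share of the alpha counts was 33.8%, 35.5% and 31.9% in WT and 16.8%, 28.3% and 19.6% in Eumyc, without overlap. B230359F08Rik, the tested segment closest to it in sequence (85.5% identity), had 35, 38 and 16 counts in WT, against 42, 40 and 38 in Eumyc (log2 fold change -0.61 ± 0.33, edgeR adjusted p = 0.155). Trav15-1-dv6-1 had 3, 9 and 7 counts in WT, against 25, 26 and 47 in Eumyc (1.21 ± 0.52, adjusted p = 0.0824), and passed the test without WT 3 (1.63, adjusted p = 0.0469). Trav15-2-dv6-2 had 14, 11 and 5 counts in WT, against 20, 6 and 22 in Eumyc (-0.36 ± 0.61, adjusted p = 0.650, and -0.65 with limma voom, adjusted p = 0.428). Trav21-dv12, which was not tested, had 0, 5 and 0 counts in WT, against 13, 14 and 12 in Eumyc.

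Summed by chain, only the gamma segments differed in level without overlap on both scales used. In CPM of all gene counts, gamma went from 6.03 ± 1.12 in WT to 16.2 ± 4.09 in Eumyc (SD, n = 3 each), a ratio of 2.68 with no overlap. Beta stood at 6.46 ± 1.09 and 5.27 ± 1.25 CPM, with overlap. Delta stood at 48.4 ± 0.491 and 46.8 ± 1.147 CPM and alpha at 4.49 ± 0.306 and 3.87 ± 0.547 CPM. For delta and alpha the groups did not overlap on this scale but overlapped after TMM scaling. No test was run on these sums. Without Trdv4 the delta sum was lower in Eumyc by more (log2 ratio -0.64), and without Trav13-4-dv7 the alpha sum was not lower (log2 ratio 0.042).

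**Figure D4:**
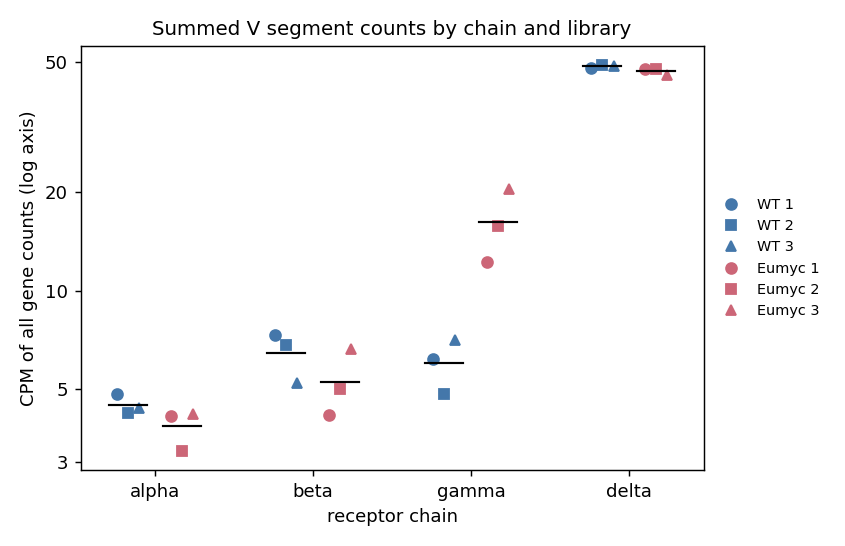
Summed CPM of all V segments of a chain in each library (vertical axis, log scale, in CPM of all gene counts), with 1 point per library and a line at the group mean. Only the gamma chain shows a wide gap, 4.84 to 7.07 CPM in WT against 12.3 to 20.4 CPM in Eumyc.

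V counts relative to the constant genes of the same chain separated the chains in another way. For delta, V counts per 100 Trdc counts were 46.4, 46.1 and 44.2 in WT and 74.8, 73.7 and 82.5 in Eumyc, with no overlap. Without Trdv4 the log2 ratio between the groups was 0.15. For gamma they were 21.8, 15.9 and 22.4 in WT and 17.1, 20.5 and 20.3 in Eumyc per 100 counts of the 4 gamma constant genes, with overlap.

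For alpha, V counts per 100 Trac counts were 49.6, 44.9 and 43.6 in WT and 41.3, 38.1 and 38.3 in Eumyc, with no overlap. These V counts include the 10 segments that can also join to the delta chain. Trav13-4-dv7 alone held 269 of the 1038 alpha counts, so part of the V counts may belong with Trdc and not Trac. Without Trav13-4-dv7 the log2 ratio was 0.015. For beta, V counts per 100 constant counts were 2.33, 2.00 and 1.52 in WT and 1.23, 1.40 and 1.84 in Eumyc, with overlap. The beta chain thus averaged 1.95 V counts per 100 constant counts in WT, the lowest of the 4 chains.

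Per length the beta chain was again lowest. Levels per kilobase of V as a percent of those of the constant genes averaged 110% for alpha, 3.70% for beta, 47.3% for gamma and 406% for delta in WT, and 93.2%, 2.82%, 46.9% and 682% in Eumyc. The delta value depends on the exon length of Trdc in GENCODE M21, which is 3865 bases, against 935 for Trac. The alpha value includes the segments shared with delta, and it may miss reads that match several alpha copies.

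**Figure D5:**
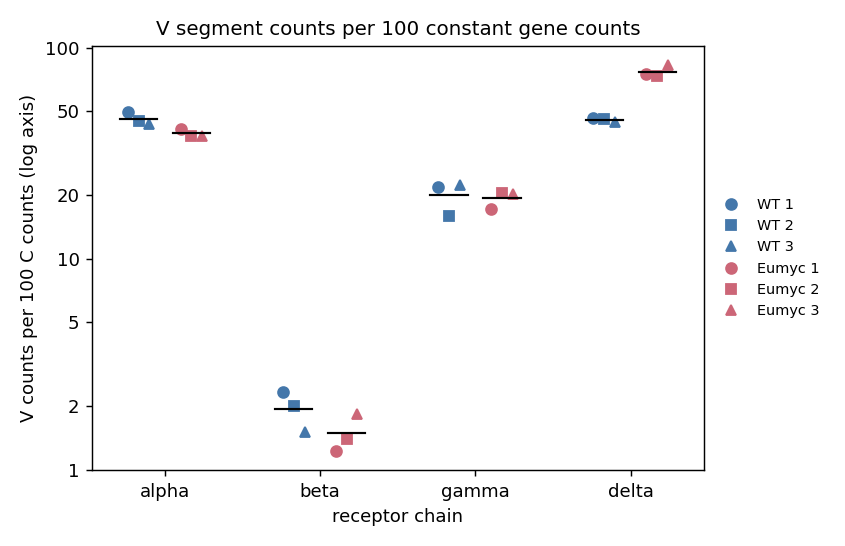
V segment counts per 100 counts of the constant genes of the same chain in each library (vertical axis, log scale), with a line at the group mean. The beta chain lies between 1.23 and 2.33 in all libraries, and the delta chain between 44.2 and 46.4 in WT and between 73.7 and 82.5 in Eumyc.

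The other constant genes and the CD3 chains, the signalling partners of every T cell receptor, did not move as 1 group. Of 7 tested constant genes, 3 rose (Tcrg-C4, Tcrg-C2, Trbc2) and 1 fell (Trdc), where 25.7% of all tested genes rose and 23.1% fell. Trbc2 went from 69.2 ± 1.71 to 96.2 ± 13.2 CPM (SD, n = 3 each; log2 fold change 0.48 ± 0.09, edgeR adjusted p = 0.00395). Trbc1 stood at 261 ± 15.3 and 261 ± 10.4 CPM (adjusted p = 0.990) and Trac at 9.63 ± 0.279 and 9.996 ± 1.26 CPM (adjusted p = 0.746). Tcrg-C3 was not tested.

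Of the 4 CD3 chains, Cd3g rose from 14.9 ± 1.29 to 64.8 ± 4.72 CPM (log2 fold change 2.12 ± 0.09, edgeR adjusted p = 1.99e-05). Cd3d rose from 16.98 ± 3.32 to 55.2 ± 12.1 CPM (1.71 ± 0.18, adjusted p = 0.000331). Cd3e stood at 10.7 ± 0.674 and 9.27 ± 1.44 CPM (adjusted p = 0.275). Cd247, the CD3 zeta chain that NK cell receptors also use, stood at 165 ± 14.2 and 165 ± 10.9 CPM (adjusted p = 0.966).

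The machinery that joins V segments was at or near 0 in its lymphocyte-specific part. Rag2, a subunit of the recombinase, and Ptcra, the partner of the beta chain before alpha is made, had 0 counts in all 6 libraries. Rag1 and Dntt, which adds bases at the joints, were at 0 in WT and at most 0.115 and 0.120 CPM in an Eumyc library. Of 11 listed genes of recombination and the pre-T cell receptor, 7 were tested, 1 rose and 0 fell, where 25.7% of all tested genes rose and 23.1% fell. The one that rose was Xrcc6, a DNA end-binding subunit of general double-strand break repair (log2 fold change 0.47, edgeR adjusted p = 0.0163). The median log2 fold change of the 7 was -0.07.

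Among 14 genes of proximal T cell receptor signalling, all tested, 2 rose and 3 fell, against 25.7% and 23.1% of all tested genes, with a median log2 fold change of 0.0021. Many of these also serve NK cell receptors. The adaptor Lcp2 rose by 0.43 (edgeR adjusted p = 0.00107) and the kinase Zap70 by 0.23 (adjusted p = 0.00833). The adaptors Nck1 and Grap2 and the kinase Fyn fell, by 0.25, 0.17 and 0.21 on the log2 scale. The kinase Lck stood at 697 ± 41.0 and 698 ± 54.5 CPM (adjusted p = 0.990).

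Markers of T cells and other cells moved with the groups, and their part in the V segment results was not tested. Of 8 T cell defining genes outside the receptor loci, 3 rose (Cd3g, Cd3d, Cd8b1), 1 fell (Cd28), where 25.7% of all tested genes rose and 23.1% fell. None of the 8 was at 0 in all libraries. Their summed level was 120 to 132 CPM in WT, against 176 to 211 CPM in Eumyc, without overlap. The sum includes Cd3g and Cd3d, whose rises are given above, so it is no separate measure. Cd28, also in it, fell from 83.8 ± 5.63 to 62.2 ± 4.56 CPM (SD, n = 3 each). Cd4 stood at 1.65 ± 0.267 and 1.96 ± 0.221 CPM (adjusted p = 0.420), Cd5 at 1.98 ± 0.160 and 2.44 ± 0.718 CPM and Cd8a at 1.74 ± 0.783 and 2.44 ± 0.614 CPM.

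Of the 12 listed genes of gamma-delta T cells, 11 were in the table and 6 tested, of which 2 rose (Tcrg-C4 and Tcrg-C2) and 1 fell (Trdc), against 25.7% and 23.1% of all tested genes. Their sum was 182 to 183 CPM in WT, against 172 to 198 CPM in Eumyc, with overlap. Il17a was at 0 in every library and Il23r in the WT libraries and Eumyc 1. Sox13, a factor of this lineage, had 4, 0 and 2 counts in WT, against 2, 6 and 5 in Eumyc. The gamma-delta list is in part made of the constant genes described here and is no separate measure.

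With the same shares of all tested genes (25.7% higher, 23.1% lower) as background, of 14 alpha-beta T cell genes 2 rose and 3 fell (863 to 885 CPM in WT, 713 to 810 CPM in Eumyc, no overlap). Trbc2 and Cd8b1 rose, and Tcf7, Cd28 and Lef1 fell. The largest parts of this sum were Tcf7 (367 ± 5.28 and 283 ± 32.4 CPM) and Trbc1 (261 CPM in each group). With Trac, Trbc1 and Trbc2 in it, the alpha-beta list is no separate measure. Of 5 tested NKT cell genes 1 rose (51.1 to 54.8 and 46.0 to 54.5 CPM, with overlap). The 11 NK cell genes summed to 16591 to 16861 CPM in WT, against 14683 to 15749 CPM in Eumyc, where 1 rose and 6 fell. B cell genes (5 of 6 rose, 15.1 to 19.1 and 48.2 to 54.1 CPM), monocyte and macrophage genes (5 of 8 rows rose, 299 to 356 and 514 to 1037 CPM) and neutrophil genes (4 of 4 tested rose, 0.164 to 2.13 and 26.3 to 32.4 CPM) were higher in Eumyc, without overlap.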

How the data were processed

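RNA of 6 libraries of sorted splenic NK cells (3 WT, 3 Eumyc) was measured. The authors deposited whole-number counts per gene for 50686 genes, with biotype and coordinates. The authors' tools, per the submitters' processing notes, were STAR 2.5.2, HTSeq 0.6.1 and DESeq2 1.10.1 on mm10 or GRCm38, names of the same build. Strand setting, annotation release and the treatment of reads with several matches were not given in the sources used here. A second deposited table, of the authors' comparison, lists 10292 genes. It holds 0 genes of a T cell receptor biotype and was not used.

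All genes were fitted together with edgeR 4.0.16 (R 4.3.3): filterByExpr at its minimum count of 10, TMM scaling, a quasi-likelihood fit on the group and a two-sided test, with Benjamini-Hochberg adjustment over 15458 tested genes and a threshold of 0.05. The common biological coefficient of variation was 0.137. Standard errors come from the F statistic. CPM of single genes are TMM-scaled, and sums over a chain or list are CPM of all counts. Expected segments at equal depth were computed by hypergeometric rarefaction without random draws. Exact binomial intervals are at 95% and, like the limit of 3 counts for a 0, cover counting error only, as PCR copies were not marked. Lengths, spans and coding sequences come from GENCODE M21, whose spans equal the deposited ones for all 144 segments. Pairs of coding sequences were aligned with Biopython 1.88.

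The members and lists were chosen with earlier results of these data known. Named segments were the 5 of each chain with the highest mean level, and up to 8 called segments in each direction with the largest log2 fold changes. All constant and CD3 genes were named, and up to 3 called genes of a list. Alternatives were DESeq2 1.42.0, limma 3.58.1 voom, other scalings and filters, the replicate number as a block, and each library left out in turn. For sums, alternatives also added pseudogenes, moved shared segments to delta or left out the leading segment. The scripts were tested on simulated counts.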

Additional observations from a re-analysis of the deposited data

How the results depend on the processing

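No called result changed direction. Gm16602, Trgv2 and Trdv5 were called under every alternative in which they were tested (14, 13 and 13). With a filter of 3 CPM in 3 libraries, 3 V segments were tested: 1 gamma segment was higher, 1 delta segment lower, and 0 alpha and 0 beta segments lower, as fewer segments were tested. Without a filter 0 alpha segments were lower, as Trav13-4-dv7 lost its call (adjusted p = 0.0592), and 3 gamma segments were higher, Tcrg-V7 being added (adjusted p = 0.0252). Leaving out 1 library gave 2 to 3 higher and 1 to 4 lower segments: 0 to 1 alpha higher, 0 to 1 alpha lower, 0 to 1 beta lower and 1 to 2 delta lower. Without the leading segment, the log2 ratio of the summed level was 0.042 for alpha and -0.64 for delta, and that of V per constant counts 0.015 and 0.15. With shared segments counted as delta, Eumyc had 1.55 more delta segments at equal depth. Over all alternatives, 26 values for counts and sums moved and 246 did not, where a count of segments was held unchanged within 1.5-fold. A change from 2 to 3 or from 4 to 3 segments was thus not taken as a move. Of the values for single genes, 15 became weaker and 1 stronger, and 348 kept their call or stayed within the spread between replicates. Tests of these sums were not made.

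The groups share replicate numbers, which the labels do not tie to an animal or day. Deviations of libraries with the same number correlated at 0.0404, 0.0985 and 0.126, and those of unlike number at -0.119 to 0.0349. Every library correlated best with its own number, a weak hint from the data only. For WT 1 the margin was small (0.0404 with Eumyc 1, 0.0349 with Eumyc 2). With the replicate block 2 V segments were higher and 3 lower, and 0 alpha segments were lower, as Trav13-4-dv7 stood at adjusted p = 0.0510.

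Depth limits the rare segments: 60 of the 122 untested ones had counts, with at most 0.213 CPM on average. With no filter, Tcrg-V7 alone among them was called.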

Other observations

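J and D segments, which join to the V segments, were looked at after their values were seen. All 7 segments of the first beta J cluster (Trbj1) fell, with log2 fold changes from -0.48 to -0.29, and 23.1% of all tested genes fell. Their summed level was 253, 278 and 285 CPM in WT and 202, 222 and 192 CPM in Eumyc, without overlap. The beta D segment Trbd1, a row of 12 bases, also fell (log2 fold change -0.44, edgeR adjusted p = 0.0242). Of the 6 segments of the second cluster (Trbj2), which lies before Trbc2, 0 passed the test with edgeR. Their sums were 9.41, 10.3 and 10.7 CPM in WT and 10.8, 11.6 and 15.3 CPM in Eumyc, higher in Eumyc without overlap. The Trbj1 segments thus carried far more counts than all beta V segments together, which summed to 4.18 to 7.34 CPM.

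In the delta locus Trdd2, Trdj1 and Trdj2 fell together with Trdc. Trdd2 had a log2 fold change of -1.17 (edgeR adjusted p = 0.00128), Trdj1 of -1.04 (adjusted p = 0.00219) and Trdj2 of -1.43 (adjusted p = 0.00407). Counts of Trdj1 per 100 counts of Trdc were 7.39, 7.43 and 6.09 in WT and 5.51, 6.49 and 5.17 in Eumyc, with overlap. Counts of Trdv4 per 100 counts of Trdj1 were 460.0, 460.6 and 567.3 in WT and 1120, 934 and 1375 in Eumyc, without overlap. None of the 51 alpha J segments passed the filter on low counts. These rows are 46 to 61 bases long for the J segments named here, and reads that span a segment and its neighbours may be counted for either or for none.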
